A study of Mus musculus with 9 samples.

Results

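The genes described here are 10 receptors, transcription factors and feedback inhibitors of prolactin, growth hormone and LIF signalling: Prlr, Ghr, Lifr, Il6st, Stat3, Stat5a, Stat5b, Socs2, Socs3 and Cish. They were taken as a given list of gene names, each of which matched 1 identifier among the 55450 features of the count table, and all 10 were among the 19357 genes tested. RNA was sequenced from live EYFP+ mammary cells sorted by FACS from adult nulliparous mice of 3 genotypes, with 3 libraries for each. All mice carried K8CreERT2, a Cre recombinase that is driven by the promoter of the luminal keratin gene Krt8 and activated by tamoxifen, and lsl-EYFP, a reporter that Cre switches on. Control mice had these alleles alone. The LATS1/2-KO mice had in addition the floxed alleles LATS1/2f/f, and the LATS1/2-Sox9-KO mice had both LATS1/2f/f and Sox9f/f. Every mouse, controls included, received 5 daily intraperitoneal doses of 2 mg of tamoxifen and the cells were sorted 7 days after the last dose. EYFP thus marks cells in which Cre acted and their progeny, and does not by itself show that each floxed allele was removed. The sources used here do not give an age for each library, nor whether a library came from 1 mouse, so the p-values below measure the spread between libraries. Total counts were 44167762 to 47003587 in the control libraries, 50508666 to 61745346 in the LATS1/2-KO-labelled libraries and 55503365 to 61967651 in the LATS1/2-Sox9-KO-labelled libraries.

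The targeted genes were examined first. Lats1 had 5672, 5929 and 5940 normalized counts (counts scaled to the mean library size) in control replicates 1 to 3, against 1923 to 2336 in the LATS1/2-KO-labelled libraries and 1709 to 2058 in the LATS1/2-Sox9-KO-labelled libraries. Lats2 had 865.2 to 1220, 1256 to 1723 and 1240 to 1957 in the same order and so was not lower in either deletion genotype. It was called higher in the LATS1/2-Sox9-KO-labelled libraries (log2 fold change 0.61, edgeR adjusted p = 0.024), a call lost in 4 of the 6 fits that left out 1 library, namely without control replicate 1 or 2 and without replicate 1 or 2 labelled LATS1/2-Sox9-KO (edgeR adjusted p = 0.0564 to 0.0902). Of the exon sequence of Lats2, 2955 bases, or 42.4%, are shared with the gene model Gm49361 on the same strand, and gene counts do not separate transcripts without the floxed exons. Sox9 had 19950 to 23310, 7205 to 12430 and 6460 to 8812 normalized counts, and did not differ between the deletion genotypes beyond their spread (log2 fold change -0.40, standard error 0.19, edgeR adjusted p = 0.25). The deletion groups are therefore named below by their labels.

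Prolactin and growth hormone act through the related receptors encoded by Prlr and Ghr, which signal through JAK2 to STAT5A and STAT5B. In the mammary gland, prolactin and STAT5A drive alveolar development and milk gene expression. LIF binds a pair of receptor chains, LIFR and the shared chain gp130 encoded by Il6st, and acts mainly through STAT3, which is known for its role in involution after weaning. Activated STATs induce Cish, Socs2 and Socs3, whose proteins limit signalling by these receptors.

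Several of these genes lie together in the genome (GRCm38). Stat5b (chr11:100780731-100850724, minus strand), Stat5a (chr11:100859351-100885169, plus strand) and Stat3 (chr11:100885098-100939540, minus strand) follow each other on chromosome 11, with 8626 bases between Stat5b and Stat5a. Stat5a and Stat3 overlap at their ends by 72 exonic bases on opposite strands, and reads from these bases may have been counted for either gene, since the kit named does not mark strand while the counting is described as same-strand. The receptor genes on chromosome 15 are Prlr (chr15:10177238-10349180, plus strand), Lifr (chr15:7090614-7197489, plus strand) and Ghr (chr15:3317760-3583492, minus strand), and Osmr (chr15:6813577-6874969, minus strand), which encodes the receptor chain for oncostatin M, is the neighbour of Lifr. The others are Il6st (chr13:112464070-112510086, plus strand), Socs2 (chr10:95385362-95417180, minus strand), Socs3 (chr11:117966079-117970047, minus strand) and Cish (chr9:107296026-107302784, plus strand).

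STAT dimers bind the palindrome TTCNNNGAA, in which N is any base and which reads the same on both strands. It was searched in windows of 300 bases around RefSeq start sites (GRCm38.p6, 250 bases before and 50 after), which were given for 9 of the 10 genes. The palindrome was present in 3 of their 15 windows, 1 each for Cish, Socs3 and Prlr, while 8.30% of all 32851 windows held it. Cish held 2 copies, as 0.457% of all windows did. The 3 genes were all lower in both deletion genotypes, but so were Lifr, Il6st, Stat3, Stat5a and Stat5b, whose windows did not hold the palindrome. The stretches that held it are shown with the palindrome in capitals, written 5′ to 3′ on the strand of the gene.
Cish, chr9:107296654-107296683, plus strand, within its first exon in GENCODE M21: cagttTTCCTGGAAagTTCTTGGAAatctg
Socs3, chr11:117969466-117969565, minus strand, outside annotated exons: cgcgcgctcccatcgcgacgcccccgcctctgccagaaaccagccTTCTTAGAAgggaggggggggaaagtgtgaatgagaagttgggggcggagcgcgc
Prlr, chr15:10223751-10223850, plus strand, before an internal start site and outside annotated exons: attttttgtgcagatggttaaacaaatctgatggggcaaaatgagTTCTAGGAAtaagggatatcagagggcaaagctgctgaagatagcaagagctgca

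In Cish the first copy starts at the RefSeq start site and the second lies 11 bases further. In Socs3 the copy starts 154 bases before the start site and in Prlr 110 bases before it. Both of these start sites lie within the gene spans given above and outside annotated exons of the gene. A match is a description of the letters, and binding was not measured.

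Most of the 10 genes were lower in both deletion genotypes. Against control, 8 of 10 fell and none rose in the LATS1/2-KO-labelled libraries (edgeR's quasi-likelihood test, Benjamini-Hochberg adjusted p at most 0.05, called the edgeR adjusted p below), where 27.1% of all genes tested were called lower and 28.7% higher. The same count, 8 lower and 0 higher of 10, was obtained in the LATS1/2-Sox9-KO-labelled libraries, where 28.7% of all genes were called lower and 29.3% higher. Both comparisons share the control libraries. The genes called lower were Prlr, Lifr, Il6st, Stat3, Stat5a, Stat5b, Socs3 and Cish in each case, and Ghr and Socs2 did not pass. All 8 also had an absolute log2 fold change above 1, a threshold that 34.6% and 37.4% of all genes met in either direction. Their libraries did not overlap with the control libraries, as in 61.6% and 68.8% of all genes. The median log2 fold change over the 10 genes was -1.99 and -2.01, against medians over all genes tested of 0.04 and 0.01. At an unadjusted p under 0.05 and by DESeq2 the counts higher were also 0 in both, though no share of all genes is given for these settings.

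**Figure D1:**
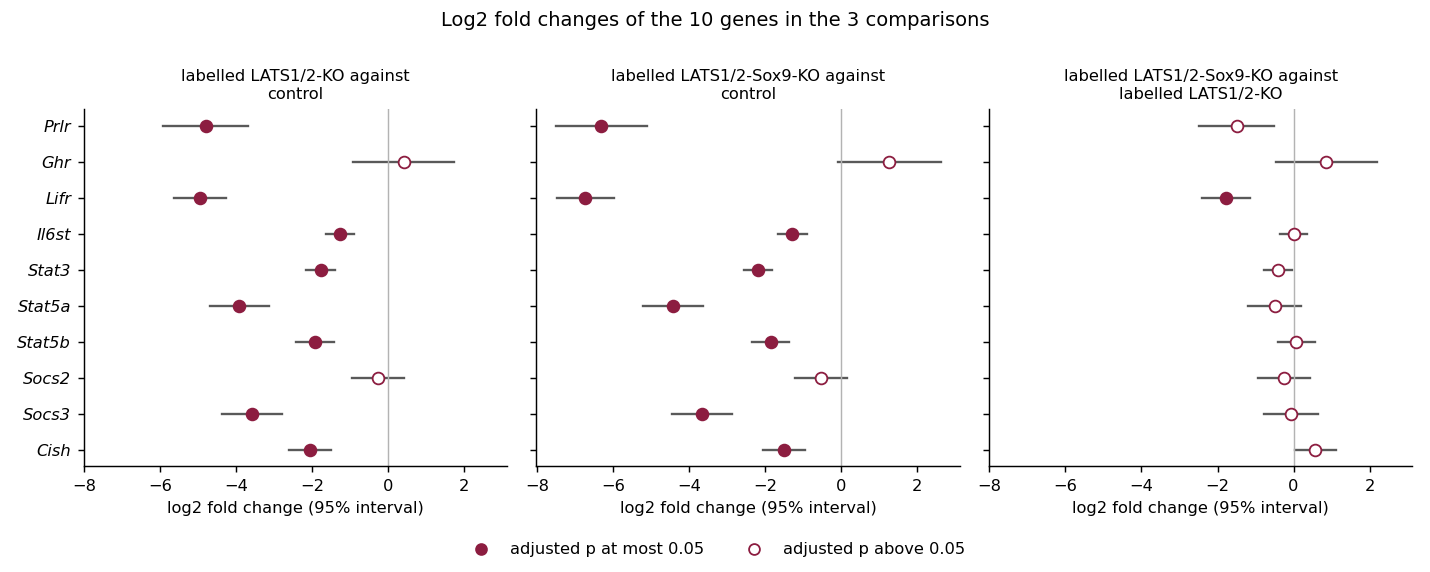
Log2 fold changes of the 10 genes (points) with 95% intervals (lines) in the 3 comparisons, filled where the edgeR adjusted p was at most 0.05. Filled points of the first 2 panels run from -1.27 for Il6st to -4.95 and -6.72 for Lifr, and Lifr alone is filled in the third panel.

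Among the receptors, Prlr, the prolactin receptor, had the highest counts in control. Its normalized counts were 175200, 152400 and 201200 in control replicates 1 to 3, 11400, 2654 and 4854 in the LATS1/2-KO-labelled libraries and 1774, 1953 and 2987 in the LATS1/2-Sox9-KO-labelled libraries. Every control library was above every library of either deletion genotype. The log2 fold change was -4.81 (standard error 0.50, edgeR adjusted p = 3.61e-05), a fitted 28.0-fold difference, in the LATS1/2-KO-labelled libraries (-5.55 without their replicate 1, the highest of the 3), and -6.30 (standard error 0.54, edgeR adjusted p = 8.33e-06), or 78.8-fold, in the LATS1/2-Sox9-KO-labelled libraries. In bulk RNA, fewer cells of a type that expresses a gene and less RNA per cell cannot be told apart, here and for the genes that follow.

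Lifr, the ligand-binding chain of the LIF receptor, showed the largest fall of the 10 genes in both control comparisons with all 9 libraries. Without replicate 1 labelled LATS1/2-KO, Prlr fell further in the first comparison (log2 fold change -5.55, against -5.00 for Lifr). Lifr had 11100, 13540 and 15070 normalized counts in control, 458.3, 295.7 and 533.5 in the LATS1/2-KO-labelled libraries and 156, 75.7 and 143.9 in the LATS1/2-Sox9-KO-labelled libraries, 3 levels without overlap. The log2 fold changes were -4.95 (standard error 0.31, edgeR adjusted p = 2.68e-06) and -6.72 (standard error 0.34, edgeR adjusted p = 5.98e-07). Il6st, which encodes gp130, the signal-transducing chain used with LIFR and by the other cytokines of the IL-6 family, fell much less. Its normalized counts were 29360, 26860 and 39020 in control, 15420, 12330 and 11630 in the LATS1/2-KO-labelled libraries and 14710, 12760 and 11940 in the LATS1/2-Sox9-KO-labelled libraries. The log2 fold change was -1.27 in both comparisons (standard error 0.17 in each, edgeR adjusted p = 0.00014 and 0.000119), and it did not pass when a 2-fold change was the null hypothesis (glmTreat adjusted p = 0.0803 and 0.0718).

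Ghr, the growth hormone receptor, was the exception among the receptors. It had 1410, 2184 and 10690 normalized counts in control, 5453, 7576 and 5939 in the LATS1/2-KO-labelled libraries and 10220, 13280 and 11090 in the LATS1/2-Sox9-KO-labelled libraries. Control replicate 3 lay above all LATS1/2-KO-labelled libraries and above 1 of those labelled LATS1/2-Sox9-KO, while the other 2 control libraries lay below all 6. The log2 fold changes of 0.41 (95% interval -0.92 to 1.74, edgeR adjusted p = 0.587) and 1.28 (95% interval -0.07 to 2.62, edgeR adjusted p = 0.0954) did not pass. Without control replicate 3 they were 1.82 (edgeR adjusted p = 0.00023) and 2.68 (edgeR adjusted p = 2.87e-05). In the LATS1/2-Sox9-KO-labelled libraries Ghr also passed with all 9 libraries when low counts were not filtered (log2 fold change 1.33, edgeR adjusted p = 0.0306) and with the replicate number as a block (1.68, edgeR adjusted p = 0.0376).

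**Figure D2:**
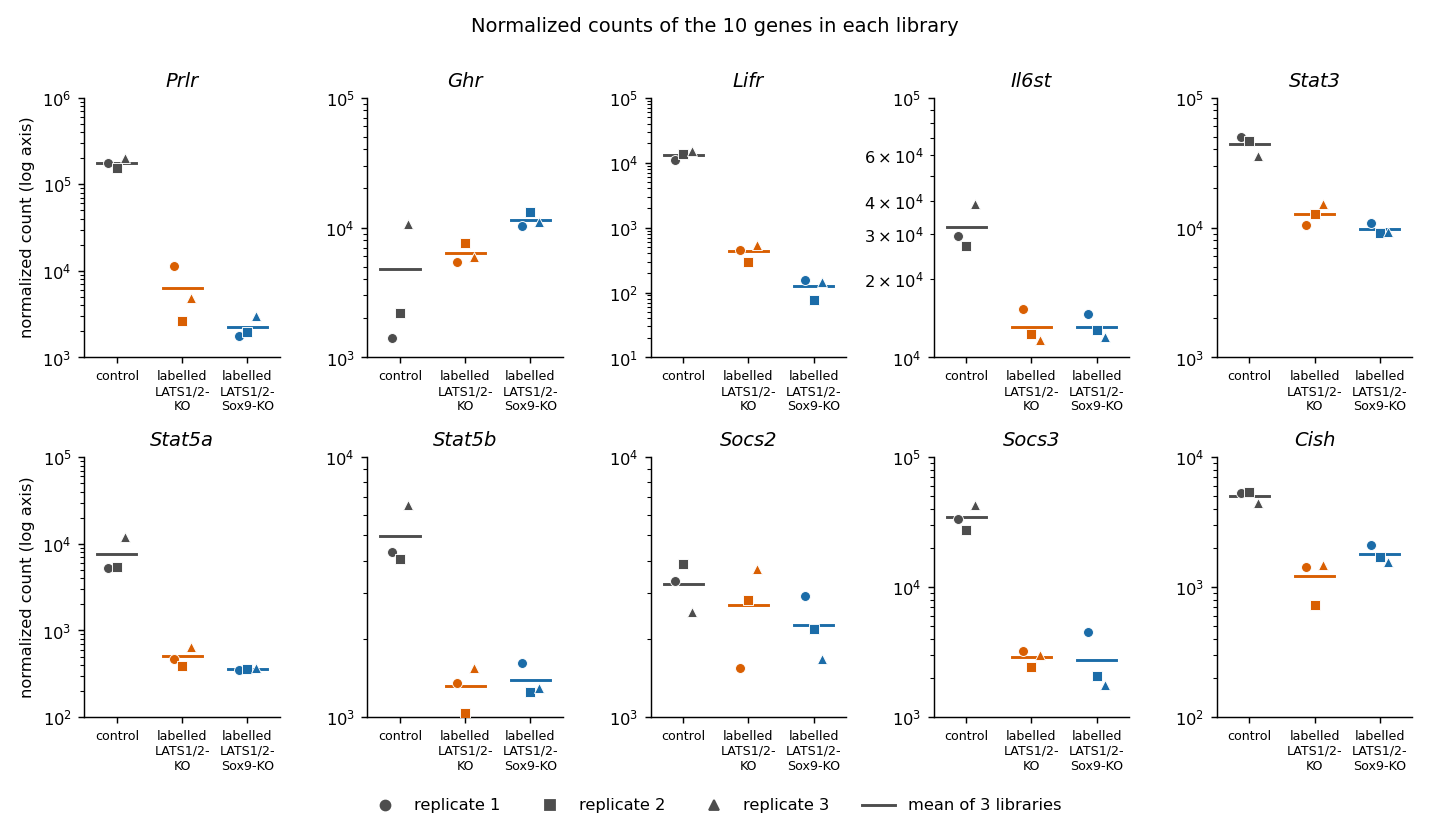
Normalized counts of each of the 10 genes on a log axis, by genotype, with 1 point per library and a line at the mean of the 3 libraries. Control points of Prlr, Lifr, Il6st, Stat3, Stat5a, Stat5b, Socs3 and Cish lie above all others, while Ghr in control spans 1410 to 10690 and Socs2 overlaps between genotypes.

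The STAT genes of the list all fell. Stat3, the main STAT of LIF and IL-6 family signalling, had 49480, 46290 and 35790 normalized counts in control, 10550, 12620 and 15190 in the LATS1/2-KO-labelled libraries and 10800, 9034 and 9213 in the LATS1/2-Sox9-KO-labelled libraries. Its log2 fold changes were -1.78 (standard error 0.17, edgeR adjusted p = 1.98e-05) and -2.18 (standard error 0.17, edgeR adjusted p = 4.97e-06). Stat5a, the STAT5 gene needed for alveolar development, had 5221, 5467 and 12050 in control, 469.4, 392.3 and 647.5 in the LATS1/2-KO-labelled libraries and 347.2, 356.7 and 366.2 in the LATS1/2-Sox9-KO-labelled libraries. Control replicate 3 was the highest, as for Ghr. The log2 fold changes were -3.91 (standard error 0.34, edgeR adjusted p = 1.29e-05) and -4.41 (standard error 0.35, edgeR adjusted p = 5.54e-06). Stat5b, its close paralogue, had 4331, 4065 and 6578 in control, 1357, 1033 and 1550 in the LATS1/2-KO-labelled libraries and 1616, 1246 and 1292 in the LATS1/2-Sox9-KO-labelled libraries. It fell (log2 fold changes -1.93 and -1.85, standard error 0.22 in each, edgeR adjusted p = 6.06e-05 and 6.28e-05). Stat5a and Stat5b are similar in sequence, and counts of uniquely aligned reads leave out those that fit both.

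Of the feedback inhibitors, Socs3 and Cish fell and Socs2 did not pass. Socs3, an inhibitor of gp130 signalling that STAT3 induces, had 33600, 27760 and 43200 normalized counts in control, 3243, 2437 and 2998 in the LATS1/2-KO-labelled libraries and 4481, 2055 and 1750 in the LATS1/2-Sox9-KO-labelled libraries. Its log2 fold changes were -3.59 (standard error 0.35, edgeR adjusted p = 2.46e-05) and -3.66 (standard error 0.35, edgeR adjusted p = 1.71e-05). Cish, an immediate target of STAT5, had 5274, 5424 and 4446 in control, 1419, 730.3 and 1477 in the LATS1/2-KO-labelled libraries and 2117, 1696 and 1568 in the LATS1/2-Sox9-KO-labelled libraries. It fell by 2.06 (standard error 0.25, edgeR adjusted p = 8.57e-05) and by 1.49 (standard error 0.24, edgeR adjusted p = 0.000506) on the log2 scale. Socs2, an inhibitor of growth hormone signalling that STAT5 also induces, had 3325, 3898 and 2541 in control, 1547, 2825 and 3716 in the LATS1/2-KO-labelled libraries and 2935, 2192 and 1679 in the LATS1/2-Sox9-KO-labelled libraries. The genotypes overlapped, with log2 fold changes of -0.27 (95% interval -0.96 to 0.42, edgeR adjusted p = 0.482) and -0.52 (95% interval -1.21 to 0.17, edgeR adjusted p = 0.176).

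The order of the 10 genes by level changed between the genotypes. Levels were compared between genes as FPKM, scaled by edgeR's factors and by exon length. In control Socs3 (224 ± 50.1 FPKM, SD, n = 3) and Prlr (213.5 ± 29.6, SD, n = 3) were highest and overlapped, followed without overlap by Stat3 (85.5 ± 14.0, SD, n = 3) and Il6st (53.1 ± 10.8, SD, n = 3). Lifr, Stat5a, Stat5b, Cish, Ghr and Socs2 followed, from 22.8 to 6.35 FPKM, and each overlapped with the next. In the LATS1/2-KO-labelled libraries the highest were Stat3 (24.9 FPKM), Il6st (22.0) and Socs3 (18.6), where Stat3 overlapped with Il6st and Il6st with Socs3, and the lowest were Stat5a (1.31) and Lifr (0.74). In the LATS1/2-Sox9-KO-labelled libraries Ghr had the highest mean (23.7 FPKM) and overlapped with Il6st (22.0), which overlapped with Stat3 (18.9) and Stat3 with Socs3 (17.8). Prlr (2.71), Stat5a (0.929) and Lifr (0.216) were the lowest there, and did not overlap with each other. Prlr thus held rank 2 in control, 5 in the LATS1/2-KO-labelled libraries and 8 in the LATS1/2-Sox9-KO-labelled libraries.

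**Figure D3:**
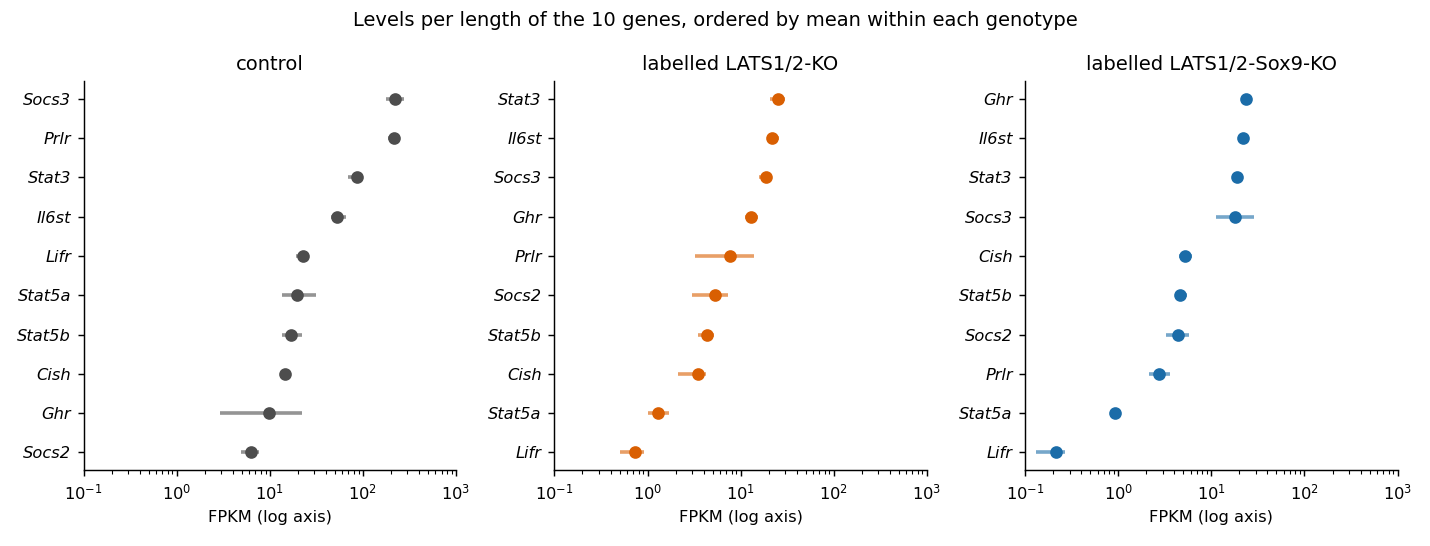
FPKM of the 10 genes on a log axis in each genotype, ordered by the mean (point), with a line from the lowest to the highest of the 3 libraries. Socs3 and Prlr lead in control, Stat3 and Il6st in the LATS1/2-KO-labelled libraries and Ghr and Il6st in the LATS1/2-Sox9-KO-labelled libraries, and Lifr is last in both deletion genotypes.

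Partner genes differed in how far their levels moved, which ratios within a library give without regard to the scaling between libraries. The ratio of Stat5a to Stat5b in FPKM was 0.936, 1.04 and 1.42 in control, 0.269, 0.295 and 0.324 in the LATS1/2-KO-labelled libraries and 0.167, 0.222 and 0.22 in the LATS1/2-Sox9-KO-labelled libraries. The ratio of Lifr to Il6st was 0.389, 0.519 and 0.398 in control, 0.0306, 0.0247 and 0.0472 in the LATS1/2-KO-labelled libraries and 0.0109, 0.00611 and 0.0124 in the LATS1/2-Sox9-KO-labelled libraries. Both ratios separated the 3 genotypes without overlap. The ratio of Osmr to Lifr, 2 chains that each pair with gp130, was 0.819 to 1.67 in control, 8.20 to 17.5 in the LATS1/2-KO-labelled libraries and 19.1 to 33.4 in the LATS1/2-Sox9-KO-labelled libraries. The ratio of Prlr to Ghr was 73.3, 41.2 and 11.1 in control, 0.207 to 1.23 in the LATS1/2-KO-labelled libraries and 0.0868 to 0.159 in the LATS1/2-Sox9-KO-labelled libraries. These ratios are given as a description and were not tested.

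**Figure D4:**
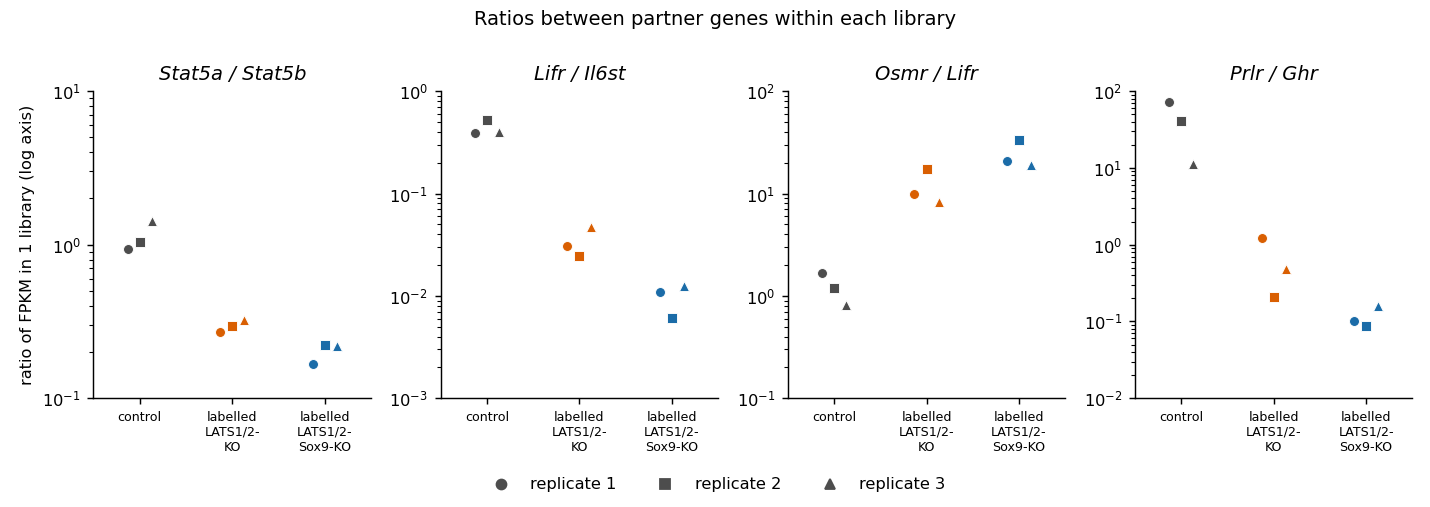
Ratios of FPKM between partner genes within each library, on log axes, by genotype, with 1 point per library. Stat5a to Stat5b, Lifr to Il6st and Prlr to Ghr are highest in control and lowest in the LATS1/2-Sox9-KO-labelled libraries, and Osmr to Lifr runs the other way, from 0.819 to 33.4.

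The rest of the pathway was described through lists of its parts, whose counts are read against the shares of all genes tested. These were 27.1% lower and 28.7% higher in the LATS1/2-KO-labelled libraries. In the LATS1/2-Sox9-KO-labelled libraries they were 28.7% lower and 29.3% higher. Of 11 ligands, 8 were tested, and 4 were lower and 1 higher in the LATS1/2-KO-labelled libraries (median log2 fold change -0.70), with 3 lower and 1 higher in the LATS1/2-Sox9-KO-labelled libraries (median -0.85). Prl and Gh, the pituitary hormones, had no count in any of the 9 libraries, which allows up to 3 counts per library by counting error alone. Lif had 25560, 26170 and 10990 normalized counts in control, 6012, 3620 and 5000 in the LATS1/2-KO-labelled libraries and 13770, 5665 and 4637 in the LATS1/2-Sox9-KO-labelled libraries. Its log2 fold changes were -2.10 (edgeR adjusted p = 0.0028) and -1.38 (edgeR adjusted p = 0.021), and the second call was lost when control replicate 1 or 2, or replicate 2 or 3 labelled LATS1/2-Sox9-KO, was left out (edgeR adjusted p = 0.0642 to 0.0765). Without replicate 1 of that genotype, its highest library, the second value was -2.01. Ctf1, cardiotrophin 1, fell (log2 fold changes -0.91 and -0.88, edgeR adjusted p = 0.00059 and 0.000625). The other ligands called were named after their values were seen and had few counts. Il6 had 87.1 to 99.8 normalized counts in control and 7.02 to 27.1 in the LATS1/2-KO-labelled libraries. Il27 had 29.0 to 122.0 in control and 6.02 to 27.9 in the deletion genotypes, and Osm, called higher in both, had 1.16 to 7.94 in control and 2.74 to 60.2 in the deletion genotypes. The calls of Osm were lost in 4 of the 6 fits that left out 1 library in each comparison (edgeR adjusted p = 0.0664 to 0.157 and 0.0609 to 0.132), namely without control replicate 1, without control replicate 3 and without either of 2 deletion libraries. Those of Il27 were lost without control replicate 3 in both comparisons and, in the second, also without replicate 2 or 3 labelled LATS1/2-Sox9-KO (edgeR adjusted p = 0.0779, and 0.0992 to 0.253). Without control replicate 3 the list had 3 and 2 ligands lower and 0 higher.

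Of 11 other receptor chains of these families, 7 were tested, and 4 were lower in the LATS1/2-KO-labelled libraries and 5 in the LATS1/2-Sox9-KO-labelled libraries, with none higher (medians -1.78 and -2.33). Osmr, which pairs with gp130 to bind oncostatin M, had 20800, 18330 and 13880 normalized counts in control, 5143, 5820 and 4916 in the LATS1/2-KO-labelled libraries and 3654, 2845 and 3088 in the LATS1/2-Sox9-KO-labelled libraries. It fell (log2 fold changes -1.74 and -2.47, standard errors 0.16 and 0.17, edgeR adjusted p = 1.83e-05 and 2.35e-06). Il6ra, the IL-6 binding chain, fell (log2 fold changes -2.66 and -3.15, edgeR adjusted p = 8.7e-05 and 2.84e-05). Il11ra1, the chain for IL-11, fell as well (log2 fold changes -2.15 and -2.33, edgeR adjusted p = 5.62e-06 and 2.66e-06). Cntfr, the ciliary neurotrophic factor receptor, had 1225 to 2475 normalized counts in control and 496.4, 77.1 and 192.4 in the LATS1/2-KO-labelled libraries (log2 fold change -2.85, edgeR adjusted p = 0.00272, and -3.77 without their replicate 1). Without control replicate 3 the counts lower were 4 and 4. The other calls, named after their values were seen, were Cntfr and Epor, the erythropoietin receptor, in the LATS1/2-Sox9-KO-labelled libraries.

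The Janus kinases, 3 of 4 of which were lower in each deletion genotype and none higher (medians -1.132 and -1.004), differed among themselves. Jak3 had 3579, 3715 and 2546 normalized counts in control, 184.7 to 424.2 in the LATS1/2-KO-labelled libraries and 144.5 to 271.1 in the LATS1/2-Sox9-KO-labelled libraries, log2 fold changes of -3.39 and -4.07 (edgeR adjusted p = 2.9e-05 and 8.99e-06). Jak2, the kinase bound to the prolactin and growth hormone receptors, fell (log2 fold changes -1.298 and -1.524, edgeR adjusted p = 0.00204 and 0.000717). Jak1 had log2 fold changes of -0.20 (edgeR adjusted p = 0.0773) and -0.38 (edgeR adjusted p = 0.00371), and Tyk2 of -0.97 (edgeR adjusted p = 0.00501) and -0.48 (edgeR adjusted p = 0.093). By level, Jak1 was the highest of the 4 in each genotype, at 43.97 ± 1.09, 38.3 ± 1.95 and 33.7 ± 1.16 FPKM (SD, n = 3).

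Of 3 other STAT genes, 2 were tested, and 1 was lower and none higher in each deletion genotype. Stat6, the STAT of IL-4 signalling, fell (log2 fold changes -1.16 and -0.74, edgeR adjusted p = 4.62e-05 and 0.000604). Stat2, which acts in type I interferon signalling, had 5737, 4725 and 3781 normalized counts in control, 2237, 2801 and 3364 in the LATS1/2-KO-labelled libraries and 13670, 6767 and 5028 in the LATS1/2-Sox9-KO-labelled libraries. Its log2 fold changes against control, -0.76 (edgeR adjusted p = 0.0742) and 0.84 (edgeR adjusted p = 0.0512), did not pass. Replicate 1 labelled LATS1/2-Sox9-KO was the highest library for Stat2. Stat4 had at most 14.4 normalized counts in any library and was not tested.

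Of 14 other inhibitors of JAK-STAT signalling, all tested, 9 were lower and 1 higher in each deletion genotype (medians -0.53 and -0.48). Ptpn1, which encodes the phosphatase PTP1B, fell (log2 fold changes -2.02 and -1.85, edgeR adjusted p = 7.21e-06 and 7.63e-06). Ptpn6, which encodes SHP-1, fell (log2 fold changes -1.87 and -1.68, edgeR adjusted p = 6.5e-06 and 8.04e-06), and so did the adaptor gene Sh2b3 (log2 fold changes -1.31 and -1.32, edgeR adjusted p = 0.00296 and 0.00262). Without control replicate 3 the counts lower were 8 and 9. Socs6 alone rose, from 1864, 1901 and 1792 normalized counts in control to 4445 to 4710 and 4980 to 5594, a log2 fold change of 1.29 and 1.52 (edgeR adjusted p = 4.87e-06 and 1.56e-06).

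Genes that prolactin and STAT5 are known to induce in the gland were described next. Of 18 on the list, 15 were tested, and 7 were lower and 1 higher in the LATS1/2-KO-labelled libraries (median log2 fold change -1.65), with 10 lower and 2 higher in the LATS1/2-Sox9-KO-labelled libraries (median -2.44). Over all genes tested, 27.1% were lower and 28.7% higher in the first comparison and 28.7% and 29.3% in the second, and the list itself was not tested. These counts were the same without control replicate 3. Btn1a1, the milk fat globule protein butyrophilin, had 33960, 31370 and 10450 normalized counts in control and 878.6 to 2595 in the deletion genotypes. Its log2 fold changes were -3.84 (edgeR adjusted p = 0.000174) and -4.01 (edgeR adjusted p = 0.000119). Lalba, alpha-lactalbumin, went from 105.8 to 844.8 in control to at most 3.65 in any library of the deletion genotypes (edgeR adjusted p = 0.000136 and 8.53e-05), and since it had at most 4 counts per library there, no fold is given. Cel, a bile salt-activated lipase of milk, had 306.2 to 626 in control, 114.3, 34.7 and 43.8 in the LATS1/2-KO-labelled libraries and 4.64, 3.99 and 11.8, or 4 to 13 raw counts, in the LATS1/2-Sox9-KO-labelled libraries. It fell in both (log2 fold changes -2.79 and -5.99, edgeR adjusted p = 0.00123 and 3.05e-05), with values of -3.50 without replicate 1 of the former and -6.64 without replicate 3 of the latter. Id2, an inhibitor of helix-loop-helix factors needed for alveolar development, rose. It had 1412 to 1445 in control, 2728 to 4126 in the LATS1/2-KO-labelled libraries and 9849 to 13290 in the LATS1/2-Sox9-KO-labelled libraries, log2 fold changes of 1.21 (edgeR adjusted p = 0.000201) and 2.96 (edgeR adjusted p = 1.36e-06). Ccnd1, cyclin D1, rose in the LATS1/2-Sox9-KO-labelled libraries by 0.83 (edgeR adjusted p = 0.0128, and 0.0531 without their replicate 3). Wap and Csn2, milk protein genes, had at most 2.32 and 183.7 normalized counts in control.

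The STAT3 and LIF responsive genes of involution and the acute phase are read against the same shares of all genes, 27.1% lower and 28.7% higher, and 28.7% lower and 29.3% higher, and were not tested as a list. Of 22, 21 were tested singly, and 12 were lower and 3 higher in the LATS1/2-KO-labelled libraries (median log2 fold change -0.74), with 13 lower and 2 higher in the LATS1/2-Sox9-KO-labelled libraries (median -1.303). Without control replicate 3 the counts were 13 lower and 3 higher, and 14 lower and 2 higher. The genes with the largest falls were the fibrinogen chains Fgg and Fgb and Igfbp5, a binding protein of insulin-like growth factors. Fgg had 50310, 26370 and 5955 normalized counts in control, 177.9 to 892.9 in the LATS1/2-KO-labelled libraries and 12.1 to 51.0 in the LATS1/2-Sox9-KO-labelled libraries. Its log2 fold changes were -5.76 (edgeR adjusted p = 0.000385) and -10.05 (edgeR adjusted p = 3.93e-05). Without control replicate 1 they were -4.99 and -9.28, and without replicate 3 of the respective deletion genotype -6.42 and -11.04. Fgb fell (log2 fold changes -6.93 and -8.55, edgeR adjusted p = 0.000503 and 0.000196) and so did Igfbp5 (log2 fold changes -3.85 and -6.20, edgeR adjusted p = 0.000628 and 5.38e-05). Fgb was at 334, 39.8 and 202.5 normalized counts in the LATS1/2-KO-labelled libraries, and its change was -7.59 without their replicate 1. In the LATS1/2-Sox9-KO-labelled libraries it was at 26.9, 12.0 and 144.8, and its change was -10.21 without their replicate 3. Igfbp5 was highest in replicate 1 of each deletion genotype, at 19120 and 4118 against at most 7749 and 1268 in the others, and its changes without these were -4.55 and -7.11. The genes higher were not of 1 kind. Lcn2, the iron-binding lipocalin 2, rose in the LATS1/2-KO-labelled libraries, from 16180 to 39850 in control to 45940 to 81880 (log2 fold change 1.08, edgeR adjusted p = 0.0155, and 0.0599 without their replicate 2). Ctsl, the protease cathepsin L, rose (log2 fold changes 0.63 and 0.58, edgeR adjusted p = 0.012 and 0.0163), and these calls were lost without replicate 2 of the respective deletion genotype (edgeR adjusted p = 0.0529 and 0.0628). Saa3, named after its values were seen, had at most 108.4 normalized counts in any library, and its call in the LATS1/2-KO-labelled libraries was lost without control replicate 1 or 2 (edgeR adjusted p = 0.0551 to 0.0567).

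**Figure D5:**
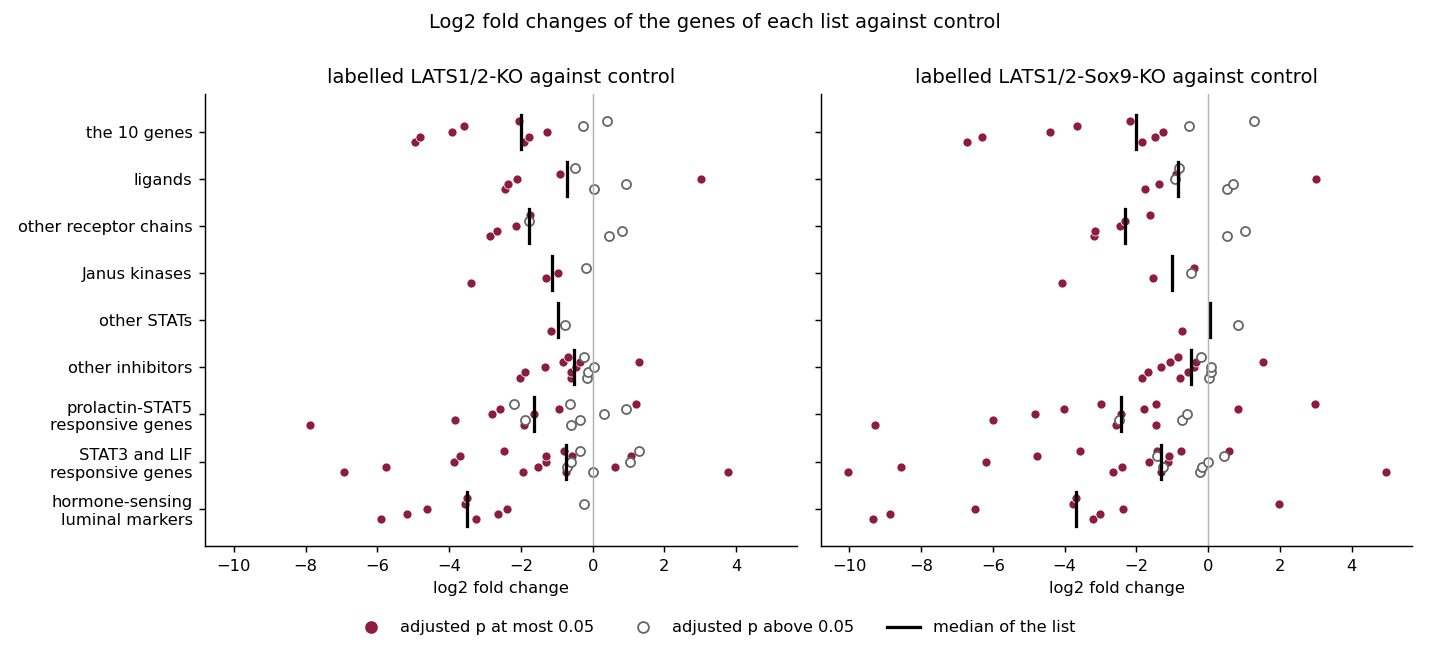
Log2 fold changes against control of the genes tested in each list, with 1 point per gene, filled where the edgeR adjusted p was at most 0.05, and a bar at the median of the list. The median is below 0 for every list shown in the LATS1/2-KO-labelled libraries, and for all but the other STATs (0.05) in the LATS1/2-Sox9-KO-labelled libraries.

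The comparison of the deletion genotypes asks what the additional floxed Sox9 changes. Lifr was called lower and no gene of the 10 higher in the LATS1/2-Sox9-KO-labelled libraries, where 3.33% of all genes tested were called lower, 3.13% higher and 3.71% passed with an absolute log2 fold change above 1. At an unadjusted p under 0.05 Cish was higher and Prlr and Stat3 were lower as well. No share of all genes is given at that threshold, so these genes are not read as a result. DESeq2 called 0 of the 10 higher and 2 lower, and its counts over all genes are given below. The log2 fold change of Lifr was -1.77 (standard error 0.29, 95% interval -2.41 to -1.14, edgeR adjusted p = 0.0101), a fitted 3.42-fold difference. It passed in 14 of 15 alternative fits, the exception being glmTreat against a 2-fold change (adjusted p = 0.24). Prlr pointed the same way, with a log2 fold change of -1.49 (95% interval -2.48 to -0.51, edgeR adjusted p = 0.0749), but its libraries overlapped and it passed in 3 of 15 alternatives. Without replicate 1 labelled LATS1/2-KO it was -0.75 (edgeR adjusted p = 0.132), and without replicate 2 of that group -1.84 (edgeR adjusted p = 0.0247). Replicate 1 also had the highest Pgr of its group, at 657.9 against 121.2 and 358.4 normalized counts, and the part of this in the value of Prlr was not tested. Ghr, Stat5a and Cish did not overlap between the deletion genotypes but did not pass, with log2 fold changes of 0.87 (edgeR adjusted p = 0.435), -0.50 (edgeR adjusted p = 0.389) and 0.57 (edgeR adjusted p = 0.196). With Lifr these were 4 of 10 genes without overlap, where 27.9% of all genes tested had none. The 95% intervals of the other genes were -0.37 to 0.37 for Il6st, -0.77 to -0.04 for Stat3, -0.40 to 0.55 for Stat5b, -0.94 to 0.44 for Socs2 and -0.78 to 0.65 for Socs3, and none passed after adjustment.

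Some partners of these genes also passed between the deletion genotypes, where 3.33% of all genes tested were lower and 3.13% higher. Osmr was lower in the LATS1/2-Sox9-KO-labelled libraries (log2 fold change -0.73, standard error 0.16, edgeR adjusted p = 0.0281), without overlap. The call was lost when replicate 2 or 3 of either deletion genotype was left out (edgeR adjusted p = 0.0643 to 0.118). Stat2 was higher (log2 fold change 1.6, standard error 0.34, edgeR adjusted p = 0.0248), a call lost without replicate 2 or 3 labelled LATS1/2-KO or replicate 2 labelled LATS1/2-Sox9-KO (edgeR adjusted p = 0.0608 to 0.0651). Of the 15 prolactin and STAT5 responsive genes tested, Id2 was higher (1.75, edgeR adjusted p = 0.00147), and 2 were lower, Csn3, the milk protein kappa-casein (-1.51, edgeR adjusted p = 0.008), and Cel, named after its values were seen. Of the 21 STAT3 and LIF responsive genes, 7 were lower and 0 higher, beside 3.33% lower and 3.13% higher of all genes. Fgg, Igfbp5 and Lrg1, an acute phase glycoprotein, had the largest differences among those that averaged 100 or more normalized counts in either group, of -4.29, -2.35 and -2.30 (edgeR adjusted p = 0.0281, 0.0487 and 0.0167), and each of these calls was lost in 3 to 4 of the 6 fits that left out 1 library. Without 1 library Fgg was -3.61 (replicate 3 labelled LATS1/2-KO) or -5.28 (replicate 3 labelled LATS1/2-Sox9-KO), and Igfbp5 -1.65 (replicate 1 labelled LATS1/2-KO) or -3.24 (replicate 1 labelled LATS1/2-Sox9-KO). No Janus kinase and none of the 14 other inhibitors passed. Of the other receptor chains Osmr was the 1 lower, and 0 were higher.

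Markers of cell types also differed between the genotypes, in both directions. Of all genes tested, 27.1% were lower and 28.7% higher in the LATS1/2-KO-labelled libraries, and 28.7% lower and 29.3% higher in the LATS1/2-Sox9-KO-labelled libraries. Of 5 general luminal markers, 2 were higher and 3 lower in the LATS1/2-KO-labelled libraries, and 2 higher and 1 lower in the LATS1/2-Sox9-KO-labelled libraries. The luminal keratins Krt8 and Krt18, of which the first drives the Cre, were at 1602 to 2050 and 3099 to 3335 FPKM in control and higher in each deletion genotype, while Krt14, a basal keratin, was at 5.30 to 9.61 FPKM in control and at 1237 to 3695 FPKM in the deletion genotypes. Of 9 markers of hormone-sensing luminal cells, the cells known for high Prlr, 8 were lower in each deletion genotype and 1, Ly6a, higher in the LATS1/2-Sox9-KO-labelled libraries (medians -3.50 and -3.67). Pgr, the progesterone receptor, had 17140 to 30020 normalized counts in control, 121.2 to 657.9 in the LATS1/2-KO-labelled libraries and 15.9 to 44.6 in the LATS1/2-Sox9-KO-labelled libraries. The ratio of Prlr to Esr1, the estrogen receptor, in FPKM was 18.3, 16.9 and 14.2 in control, 7.72, 4.03 and 6.31 in the LATS1/2-KO-labelled libraries and 1.67, 2.65 and 3.85 in the LATS1/2-Sox9-KO-labelled libraries. The ratio of Prlr to Pgr went the other way, at 5.7, 4.06 and 3.73 in control, 9.65, 12.2 and 7.54 in the LATS1/2-KO-labelled libraries and 22.6, 68.2 and 37.3 in the LATS1/2-Sox9-KO-labelled libraries, so the level of Prlr relative to hormone-sensing markers depended on the marker. The summed level of the list was 887 to 1402 FPKM in control, 188.3 to 257.5 in the LATS1/2-KO-labelled libraries and 605.4 to 959.3 in the LATS1/2-Sox9-KO-labelled libraries, and Ly6a made up 49.6% of it over all libraries. Its share differed by genotype, with Ly6a at 101.9 to 263.4 FPKM in control, 112.4 to 224.3 in the LATS1/2-KO-labelled libraries and 536.6 to 884.3 in the LATS1/2-Sox9-KO-labelled libraries. Of 9 markers of luminal progenitors, 4 were lower and none higher in the LATS1/2-KO-labelled libraries, and 7 lower and 1 higher in the LATS1/2-Sox9-KO-labelled libraries. Their sums were 892.8 to 1511, 521.6 to 577.5 and 295.8 to 341.1 FPKM. Mfge8 was the most abundant gene over all libraries together. By mean, Cd14 (127.3 FPKM) was highest in the LATS1/2-KO-labelled libraries and Aldh1a3 (80.1 FPKM) in the LATS1/2-Sox9-KO-labelled libraries. The list shares Lalba, Ltf, Csn3 and Elf5 with the prolactin and STAT5 responsive genes and Cd14 with the STAT3 and LIF responsive genes. Of the 4 markers lower in the LATS1/2-KO-labelled libraries, Lalba, Ltf and Csn3 were among these shared genes and Mfge8 was not, so the counts of the lists are not independent. Of 10 basal and myoepithelial markers, 4 were higher in each deletion genotype, and 3 and 5 lower. Their sums were 26.3 to 33.9, 1629 to 2829 and 1714 to 4117 FPKM. Krt14 made up 87.1% of the sum over all libraries together, but was at 5.30 to 9.61 FPKM in control. Trp63, a defining basal transcription factor, fell from 373.5 to 2153 normalized counts in control to 32.5 to 113.9 in the deletion genotypes. Some of these calls rested on single libraries. Among the fits that left out 1 library, Itga2, the luminal progenitor marker that was higher, lost its call in 5 of 6 (edgeR adjusted p = 0.0629 to 0.147), and Cdh1, a general luminal marker lower in the LATS1/2-KO-labelled libraries, in 4 of 6 (edgeR adjusted p = 0.0688 to 0.089). The part of these markers in the results above was not tested.

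Other cell types left smaller signals, and their counts are read against the same shares of all genes, 27.1% lower and 28.7% higher, and 28.7% lower and 29.3% higher. Of 8 adipocyte markers, 6 were higher and 1 lower in the LATS1/2-KO-labelled libraries, and 4 higher and 1 lower in the LATS1/2-Sox9-KO-labelled libraries. Their sums were 1.65, 1.32 and 3.09 FPKM in control, 2.20, 84.4 and 47.0 in the LATS1/2-KO-labelled libraries and 0.493, 24.4 and 13.0 in the LATS1/2-Sox9-KO-labelled libraries. Over all libraries together 69.1% came from Cfd. Cfd was at 0 FPKM in control and in replicate 1 labelled LATS1/2-KO, and at 0.019 FPKM in replicate 1 labelled LATS1/2-Sox9-KO. Its call in the LATS1/2-Sox9-KO-labelled libraries was lost in 5 of the 6 fits without 1 library (edgeR adjusted p = 0.068 to 0.0954). The marker lower in both comparisons was Pparg, with 66.1, 83.9 and 278.8 normalized counts in control. It had 15.0 to 44.9 in the LATS1/2-KO-labelled libraries and 8.97 to 19.1 in the LATS1/2-Sox9-KO-labelled libraries. The call of Pparg in the former was lost without control replicate 3 (edgeR adjusted p = 0.076). Adipocytes also express Ghr, whose normalized counts in the same libraries were 1410, 2184 and 10690 in control, 5453, 7576 and 5939 in the LATS1/2-KO-labelled libraries and 10220, 13280 and 11090 in the LATS1/2-Sox9-KO-labelled libraries. Within each genotype but control, where replicate 1 had the lower Ghr and replicate 2 the lower sum, the libraries had the same order by Ghr and by the adipocyte sum. Between the deletion genotypes they did not. Replicate 1 labelled LATS1/2-Sox9-KO had the lowest adipocyte sum of any library (0.493 FPKM), but its Ghr (10220) was above that of every LATS1/2-KO-labelled library. The part of adipocyte RNA in the values of Ghr was not tested. Fibroblast sums were 7.10, 12.9 and 29.1 FPKM in control, 6.14 to 24.4 in the LATS1/2-KO-labelled libraries and 6.66 to 17.2 in the LATS1/2-Sox9-KO-labelled libraries. Dcn was the most abundant gene over all libraries together and in control (mean 13.9 FPKM). By mean, Col3a1 (3.80 FPKM) was highest in the LATS1/2-KO-labelled libraries and Col1a1 (4.57 FPKM) in the LATS1/2-Sox9-KO-labelled libraries. Of the 8 fibroblast markers, 4 and 3 were higher and 1 and 2 lower, and the fall of Dcn in the LATS1/2-KO-labelled libraries was lost in 5 of the 6 fits without 1 library (edgeR adjusted p = 0.0543 to 0.185). Control replicate 3 had the highest Prlr, Ghr, Lifr, Il6st, Stat5a, Stat5b and Socs3 of control, and the lowest Stat3, Socs2 and Cish. It also had the highest fibroblast sum and the highest hormone-sensing sum of control (1402 against 963 and 886.9 FPKM). Its luminal progenitor sum (892.8 against 1232 and 1511 FPKM) and Lif count were the lowest of control. The part of the differences in these sums in the values of Ghr and the other genes was not tested. Immune sums were 8.74 to 13.4, 10.5 to 28.7 and 18.5 to 23.5 FPKM. They were led by Cd68 in control (mean 5.95 FPKM, against 0.51 for Csf1r) and by Csf1r in the deletion genotypes (means 7.43 and 10.4 FPKM). The defining T cell gene Cd3e had no count in any library. Of 9 immune markers, 7 were tested, and 1 and 2 were higher. Endothelial sums were 6.69 to 8.18, 2.39 to 2.73 and 0.802 to 2.81 FPKM, with 1 of 7 markers higher and 1 lower in each deletion genotype. Vwf led in control (mean 5.94 FPKM, against 0.187 and 0.138 in the deletion genotypes). In the deletion genotypes Pecam1 had the highest mean (0.834 and 0.603 FPKM).

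For Ghr and Lifr, the genes with the highest and the lowest log2 fold changes against control of the 10, the genes with the most similar pattern were sought among the 11812 genes that averaged 100 or more normalized counts. Likeness was the root mean square difference of mean-centred log2 CPM over the 9 libraries. Nearest to Ghr were Fam129a (0.34), Ablim1 (0.37) and Zfp53 (0.42), which share the high value in control replicate 3. Ablim1, an actin-binding protein gene, had 2917, 4157 and 8915 normalized counts in control, 9098 to 9677 in the LATS1/2-KO-labelled libraries and 12430 to 16520 in the LATS1/2-Sox9-KO-labelled libraries. Nearest to Lifr were Proc (0.38), Slc46a3 (0.42) and Slc22a17 (0.44). Proc, the gene of the anticoagulant protein C, had 1144, 1232 and 1735 in control, 60.2, 19.5 and 37.4 in the LATS1/2-KO-labelled libraries and 16.7, 4.98 and 8.20 in the LATS1/2-Sox9-KO-labelled libraries. Slc46a3 was at 1365 to 2254, 51.7 to 112.2 and 21.9 to 31.6, and Slc22a17 at 2336 to 3570, 44.1 to 159.5 and 17.9 to 44.6, where the deletion genotypes overlapped. These genes were chosen for their likeness over the same libraries, so their order is a description.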

How the data were processed

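The data were gene counts of 9 libraries of sorted EYFP+ mammary cells, grouped by their labels. The authors mapped reads with STAR 2.6.0c (mm10) and assigned unique, same-strand proper pairs to Ensembl genes with featureCounts (Subread 1.6.2), leaving out mitochondrial genes. The deposited values are raw counts per gene and library, neither normalized nor pooled. GENCODE M21 named 55104 of 55450 features. The fit, in R 4.3.3 with edgeR 4.0.16, used filterByExpr, TMM factors and the quasi-likelihood test on 1 model of the 3 group means over all libraries, with Benjamini-Hochberg adjustment over 19357 genes, and was tested on simulated data. Normalized counts are counts brought to the average effective library size, and FPKM used the union of exons. Other settings were RLE or upper-quartile factors, factors computed without the 100 most counted genes, an open filter or one of 10 counts in each library, a fit of only the groups compared, a replicate block, omission of each library, glmTreat with a 2-fold null and DESeq2 1.42.0. List counts without control replicate 3 were added after the data were seen. The 10 genes, the lists and the tests were chosen with earlier results of these data known. Named beyond the 10 were the targeted genes, Osmr, the Janus kinases, the other STATs, the genes nearest in pattern to Ghr and Lifr and, per list, comparison and direction, up to 3 called genes with the largest absolute log2 fold change and a group mean of 100 or more. A few listed genes are not reported here and enter no list count or sum. For cell type lists, the sums, the most abundant gene over all libraries, leading genes of single genotypes and defining markers are given. No libraries of a genotype agreed within sampling noise (chi-square per gene 17.9 to 142.1). With these depths, the 3 libraries per group rather than counting error limit the precision for most genes named.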

Additional observations from a re-analysis of the deposited data

Results flagged for a closer look

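Lifr was the gene of the 10 whose change against control differed between the 2 deletion genotypes by a test of the difference. Its log2 fold change against control was -4.95 in the LATS1/2-KO-labelled libraries and -6.72 in the LATS1/2-Sox9-KO-labelled libraries, a difference of -1.77 (standard error 0.29, edgeR adjusted p = 0.0101) that is the direct comparison of the deletion genotypes. All 3 LATS1/2-Sox9-KO-labelled libraries, at 75.7 to 156 normalized counts, lay below the 3 labelled LATS1/2-KO, at 295.7 to 533.5. Sox9 itself did not differ between these libraries beyond their spread, and whether the difference in Lifr comes with the Sox9 allele or with another difference between the groups cannot be told apart.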

How the results depend on the processing

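The 8 genes called lower against control kept their direction and call in the 14 alternatives other than glmTreat in both control comparisons, and Il6st lost its call under glmTreat. Ghr was the 1 gene of the 10 that became higher against control. It did so without control replicate 3 in both comparisons (0 to 1 gene higher over the fits that left out 1 library) and, in the LATS1/2-Sox9-KO-labelled libraries, with no filter (1 gene, log2 fold change 1.33) and with the replicate block (1 gene, log2 fold change 1.68). Same-numbered libraries correlated by -0.0551 to 0.13, so the numbers were not taken to pair them, and with the replicate block 8 genes of the 10 were still lower in both control comparisons and 1 in the third. Between the deletion genotypes 1 gene was higher with the 2 groups alone (Ghr), 2 were lower with no filter, by DESeq2 and without replicate 2 labelled LATS1/2-KO (Prlr and Lifr, 1 to 2 over the fits that left out 1 library), and 0 were lower under glmTreat.

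Over all genes, glmTreat called 1962 higher and 2043 lower (5550 and 5238 otherwise) in the LATS1/2-KO-labelled libraries, 2240 and 2468 (5663 and 5547) in the LATS1/2-Sox9-KO-labelled libraries, and 18 and 14 (605 and 644) between them. In the last comparison DESeq2 called 1172 and 1228, and leaving out 1 library gave 118 to 1034 higher and 93 to 1052 lower, the fewest without replicate 2 labelled LATS1/2-Sox9-KO and the most without replicate 1 labelled LATS1/2-KO.

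Values that changed sign had not passed, and the cause was not tested. Over the fits that left out 1 library, the log2 fold changes in the LATS1/2-KO-labelled libraries against control ran from -0.026 (without control replicate 1) to 1.815 (without control replicate 3) for Ghr and from -0.553 to 0.007 for Socs2. Between the deletion genotypes they ran from -0.088 to 0.133 for Il6st, from -0.049 to 0.204 for Stat5b, from -0.527 to 0.046 for Socs2 and from -0.586 to 0.176 for Socs3. Il6st was also -0.055 with upper-quartile factors and -0.010 with at least 10 counts in every library. Of the values of single named genes under alternatives, 2289 kept their direction and side of the threshold, 149 lost and 30 gained a call, and 13 changed sign. No scaling moved the median of all genes by more than 0.052 in size.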
